A study of Homo sapiens with 6 samples.

Results

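13 of the 7873 shRNAs of the library were far higher in 1 of the 3 libraries of selected HUH7 cells than in the other two. In 12 of them the other two lay below the input, and in 1, against LINC01503, all 3 lay above it. They were chosen by their CPM, the count of an shRNA as a share of its library's total, put on a common scale. The mean count in the 3 input libraries had to be at least 30 and no selected library could be at 0, which left 6833 eligible shRNAs. Of these, an shRNA was taken when its highest selected library was at least 3 times the second highest and at least 1.5 times the mean of the input libraries. The 13 are 0.190% of the eligible shRNAs. Because this rule reads all 6 libraries, the values given for these shRNAs are descriptions without a test.

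The input libraries are, by the study's methods, the pooled pLKO.1 plasmids from which the virus was made, although their labels name HUH7 genomic DNA as for the other libraries. The selected libraries hold the shRNA cassettes found in HUH7, a human hepatocellular carcinoma line. These cells were infected at an MOI of 0.3, put on puromycin after 2 days, kept on it for 4 days and cultured for 4 more weeks at a representation of 500 cells per shRNA. The sources used here do not state whether the 3 selected replicates came from separate infections or cultures, so the spread between them may be technical. Totals were 2323330 to 2612829 counts in the input libraries and 1525256, 3008556 and 4013368 counts in selected replicates 1, 2 and 3.

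An shRNA is a short hairpin transcript that the cell trims to a guide strand, which directs the RNA interference machinery to RNAs with a matching site. Lentivirus writes the hairpin cassette into the genome of the infected cell, and all descendants of that cell carry it. The number of cassettes in a culture therefore follows both the effect of the knockdown and the fortunes of the cells that happened to be infected. A cell family that outgrows the others raises the count of its cassette whatever the target is. The reads carry no mark of the integration, so that growth of a single family and a higher number of infected cells cannot be told apart in these counts.

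The targets of 7 of the 13 shRNAs are given here, since the comparisons with related hairpins below turn on them. Each is the strand of the target RNA, 21 bases from 5′ to 3′, and the capitals mark target positions 14 to 20, which pair with the seed (positions 2 to 8) of the guide. Places are those of GRCh37.
XR_432502 shRNA 1 (LINC01503, chr9:132109574-132109594, plus strand): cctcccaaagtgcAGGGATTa
ENST00000567966 shRNA 1 (LINC01228, chr16:79832200-79832220, minus strand): acgatgcctcatgCCTGTAAt
XR_253560 shRNA 2: atggtggcatccgCCTGTAAt
ENST00000399152 shRNA 2 (chr4:172485190-172485210, minus strand): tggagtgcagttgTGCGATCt
NR_103814 shRNA 4 (LINC00276, chr2:14369311-14369331, minus strand): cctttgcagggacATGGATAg
ENST00000503987 shRNA 4 (chr4:68285755-68286623, minus strand, across an intron): ataaggcttagagACGGGTTt
NR_046989 shRNA 2 (LINC00351, chr13:85937960-85937980, plus strand): gacgcctttaagaGCTGTAAc
The target of XR_432502 shRNA 1 lies in exon 5 and that of NR_103814 shRNA 4 in exon 4 of transcripts of the GENCODE genes of those names. The targets in ENST00000567966 and ENST00000399152 lie in exon 2, and that in ENST00000503987 joins exons 1 and 2. The target of NR_046989 shRNA 2 lies in exon 1. The other 6 are ENST00000523336 shRNA 5, ENST00000520766 shRNA 5 (LINC00824), ENST00000580169 shRNA 2, ENST00000505166 shRNA 1, NR_120563 shRNA 2 (NCAM1-AS2, an antisense RNA at the gene of a neural cell adhesion molecule) and ENST00000532768 shRNA 2.

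The replicates did not contribute alike. 10 of the 13 shRNAs were highest in selected replicate 1, 0 in selected replicate 2 and 3 in selected replicate 3, which is 0.146%, 0.00% and 0.0439% of the eligible shRNAs. Over all eligible shRNAs the highest library was selected replicate 1 in 35.5%, selected replicate 2 in 32.9% and selected replicate 3 in 31.6% of cases. The limit against the input alone, at least 1.5 times its mean, was met by 1435 eligible shRNAs. Of these, 683 were highest in selected replicate 1, 400 in selected replicate 2 and 352 in selected replicate 3. Selected replicate 1 also has the lowest total, and its part in the split of the 13 was not tested. In the opposite direction, 130 eligible shRNAs had 1 selected library at least 3 times below the next lowest and at least 1.5 times below the input mean, of which 93 were lowest in selected replicate 1, 29 in selected replicate 2 and 8 in selected replicate 3. Selected replicate 1 thus stood apart from the other two both upward and downward. Among the rarest 1709 eligible shRNAs of the pool, the SD of the log2 ratio was 1.07 between selected replicates 1 and 2, 1.01 between 1 and 3 and 0.76 between 2 and 3.

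XR_432502 shRNA 1, against LINC01503, rose most. LINC01503 is a lncRNA known as a growth-promoting transcript of squamous cell carcinomas. Its hairpin stood at 18.0, 17.6 and 18.8 CPM in the input libraries and at 222, 54.5 and 36.1 in selected replicates 1, 2 and 3. All 3 selected libraries lay above all input libraries, so that this shRNA was high throughout and highest in selected replicate 1. That library was 12.2 times the input mean and 4.07 times the second highest, with a 95% counting interval of 3.36 to 4.93 for the latter ratio. It climbed from rank 6632 of 7873 in the input to rank 1431 in selected replicate 1, where it took 0.0222% of the reads.

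NR_046989 shRNA 2, against LINC00351, is the only other shRNA of the 13 that reached 3 times the input mean. Its values were 12.6, 18.1 and 19.2 CPM in the input libraries and 10.5, 7.64 and 53.1 in selected replicates 1, 2 and 3. Selected replicate 3 was 3.19 times the input mean, while the other two lay below every input library.

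The remaining 9 shRNAs that were highest in selected replicate 1 lay below every input library in the other two selected libraries. For ENST00000399152 shRNA 2, the input libraries held 18.0, 12.9 and 14.5 CPM and selected replicates 1, 2 and 3 held 24.3, 1.33 and 3.24. Its ratio of highest to second highest, 7.49 (95% counting interval 3.89 to 15.4), was the largest of the 13, yet selected replicate 1 was only 1.60 times the input mean. ENST00000567966 shRNA 1, against LINC01228, had 50.5, 44.3 and 57.2 CPM in the input libraries and 89.2, 11.3 and 16.7 after selection. It was the most abundant of the 13 in the plasmid pool, and selected replicates 2 and 3 lay 4.48-fold and 3.04-fold below the input mean.

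ENST00000523336 shRNA 5 had 17.2, 25.8 and 28.2 CPM in the input libraries and 46.5, 7.64 and 9.72 in selected replicates 1, 2 and 3. NR_103814 shRNA 4, against LINC00276, had 13.4, 21.5 and 21.1, and then 38.7, 9.64 and 8.97. In both, selected replicates 2 and 3 were close to each other and well under the first. XR_253560 shRNA 2 had 11.5, 12.1 and 13.7, and then 34.1, 8.97 and 5.23. For ENST00000520766 shRNA 5, against LINC00824, the values were 35.6, 29.7 and 32.9, and then 57.0, 15.3 and 12.5. For these too the values of selected replicates 2 and 3 lay on the same side of the input. ENST00000503987 shRNA 4 went from 11.5, 12.1 and 19.6 to 38.0, 8.31 and 10.7. ENST00000580169 shRNA 2 went from 21.8, 22.8 and 19.96 to 41.3, 12.3 and 10.96. ENST00000505166 shRNA 1 went from 36.4, 31.0 and 38.8 to 55.1, 7.98 and 16.7, and had the smallest rise over the input, 1.56 times its mean.

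Apart from the LINC00351 hairpin, 2 shRNAs were highest in selected replicate 3. NR_120563 shRNA 2, against NCAM1-AS2, stood at 23.0, 18.1 and 22.3 CPM in the input libraries and at 7.87, 13.3 and 44.1 in selected replicates 1, 2 and 3. ENST00000532768 shRNA 2 stood at 8.42, 15.9 and 12.9 and then at 6.56, 2.99 and 20.2. The second of these rests on 10, 9 and 81 counts, and its counting interval of 1.59 to 6.66 for the ratio of highest to second highest is the one that reaches lowest.

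Set against the input, the 13 shRNAs were therefore mostly low in 2 selected libraries and moderately high in the other. In 12 of 13 both lower selected libraries lay below all 3 input libraries, which was the case in 46.3% of the eligible shRNAs. The highest library lay above all input libraries in 13 of 13, against 60.9% of the eligible shRNAs. The rule fixes much of this: in the 11 whose highest library was under 3 times the input mean, the second highest had to be below that mean. The median rise of the highest library over the input was 1.96-fold. Counts in the highest library ran from 37 to 338. The lower counting limit of the ratio of highest to second highest was at least 3 in 5 of the 13 and at least 2 in 12 of them. Reads carry no molecular identifiers, so these intervals cover counting error only. The rule kept only ratios of at least 3, so the intervals of the same ratio lean high.

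Even where they rose, these hairpins stayed a small part of the pool. The 10 that were highest in selected replicate 1 together made up 0.0646% of its reads, compared with 0.0137% and 0.0131% in selected replicates 2 and 3 and 0.0243% in the input libraries. The 3 that were highest in selected replicate 3 made up 0.0117% of its reads, 0.00249% and 0.00239% in selected replicates 1 and 2 and 0.00502% in the input. Leaving aside XR_432502 shRNA 1, each ranked between 4074 and 6455 of 7873 in the library where it was highest.

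Low abundance at the start was common to all 13. They fell into the rarest of 4 groups of 1708 or 1709 eligible shRNAs ordered by mean input count, a group with 30 to 154 counts, and 0 fell into any other. Their own mean input counts were 30.7 to 127, with a median of 46.3, where the eligible shRNAs had a median of 284. The input libraries themselves did not differ in this way. No eligible shRNA had an input library at 3 times or even 2 times the next, the largest such ratio being 1.67, and in the 13 the ratio was 1.02 to 1.62. The input libraries all sample the same plasmid pool, and the minimum mean count of 30 applies to them alone. Selected libraries only had to be above 0, so the input spread is not a like reference for theirs. In the selected libraries, the median ratio of highest to second highest fell from 1.24 in the rarest group to 1.17, 1.13 and 1.09 in the more abundant ones.

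Selected replicate 1 also led when the limit was relaxed. At a ratio of at least 2, 69 shRNAs met the rule, 48 of them highest in selected replicate 1, 11 in selected replicate 2 and 10 in selected replicate 3, and 61 of the 69 lay in the rarest group. Only 1 of the 69 was in the most abundant group. This was ENST00000505109 shRNA 3, picked out here for that reason after its values were seen. Its raw counts in the input libraries were 643, 538 and 612, with a mean of 239 CPM. In selected replicates 1, 2 and 3 it stood at 603, 268 and 285 CPM, so that the highest was 2.52 times the input mean. At a ratio of at least 4, 5 of 6 shRNAs were highest in selected replicate 1 and 1 was highest in selected replicate 3.

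Values near the limits of the rule lay close together. ENST00000532768 shRNA 2 was the nearest inside the ratio of highest to second highest, at 3.08, and ENST00000564121 shRNA 2 the nearest outside, at 2.99. ENST00000505166 shRNA 1 was the nearest inside the limit against the input, at 1.56 times, and NR_038904 shRNA 4, against LINC00958, the nearest outside, at 1.42 times. By input count, ENST00000532768 shRNA 2 was just inside with a mean of 30.7 and ENST00000523859 shRNA 1, against RIPK2-DT, just outside with 29.0. 23 shRNAs were kept out by the limit against the input alone, 32 by the minimum input count alone and 0 by a selected library at 0.

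The hairpins were directed against 13 different lncRNAs. None was aimed at a protein-coding gene (7.29% of the eligible shRNAs) or at a reporter or resistance gene (0.615%). 5 of the 13 targeted lncRNAs with LINC names (38.5%, against 25.4% of the eligible shRNAs), 1 an antisense lncRNA (11.9% of the eligible) and 2 transcripts with XR_ identifiers (6.64%). 0 belonged to host genes of small nucleolar RNAs (1.51% of the eligible) and 0 to a list of lncRNAs studied in cancer (2.81%), which does not hold LINC01503. Among the 56 further shRNAs with a ratio of 2 to 3, 2 were aimed at protein-coding genes. NM_005901.4 shRNA 3, against SMAD2, a signal transducer of the TGF-beta pathway, had a ratio of 2.77 and reached 3.24 times the input mean in selected replicate 1. NM_001098268.1 shRNA 2, against LIG4, the ligase of DNA end joining, had a ratio of 2.05. ENST00000432668 shRNA 5 against SNHG26 had a ratio of 2.67, NR_015395 shRNA 1 against LINC00152 one of 2.24 and ENST00000577828 shRNA 3 against LINC00511 one of 2.08, all in selected replicate 1.

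The GC content of the targets was 42.9% to 52.4%, with a median of 47.6%. The eligible shRNAs had the same median and a wider range, 28.6% to 57.1%, and 66.8% of them lay between 40% and 55%, as did 13 of the 13. 6 of 13 targets matched more than 100 places in GRCh37 (46.2%, against 32.3% of the eligible shRNAs and 21.4% of the 56 with a ratio of 2 to 3). That of XR_432502 shRNA 1 matched 2244 places and exons of 24 genes, whereas those of ENST00000505166 shRNA 1 and ENST00000532768 shRNA 2 matched a single place. Of the 10 targets with a place in the annotation, 4 lay on chromosome 8, where 6.75% of the eligible shRNAs with a place and 2 of 50 of those with a ratio of 2 to 3 lay. 11 of 13 targets began in the first 120 bases of their transcript (84.6%, against 54.0% of the eligible and 51.8% of the 56). Seeds of known miRNAs were carried by 1 guide of the 13 (7.69%, against 12.6% of the eligible), that of ENST00000523336 shRNA 5, whose seed is shared with hsa-miR-4299. These features were compared after the members were known and none was tested.

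Other hairpins against the same lncRNAs were examined in the library where the expanded one was highest. Of 52 such shRNAs, 48 were eligible. For each, the library in which its partner was highest was divided by the mean of the other selected libraries. The median log2 of this ratio was -0.10, with a range of -0.89 to 1.38, and 12 of 48 (25.0%) were highest in the same library. These were 10 of 36 (27.8%) for selected replicate 1 and 2 of 12 (16.7%) for selected replicate 3. Of all eligible shRNAs, 35.5% and 31.6% were highest in these libraries. Hairpins against 1 lncRNA in the same libraries are not independent, and the difference was not tested. Only 1 of the 48 reached 2-fold. This was ENST00000523336 shRNA 4, with 53.1, 22.3 and 18.4 CPM in selected replicates 1, 2 and 3 against an input mean of 29.9. Its target begins at base 226 of the transcript and that of ENST00000523336 shRNA 5 at base 27, so that the targets do not overlap. The other 3 shRNAs of this lncRNA were lower in selected replicate 1 than in the other selected libraries on average, with log2 ratios of -0.22, -0.22 and -0.66.

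The targets of 7 other shRNAs shared bases with one of the 13, in some cases only 2 or 3. None of the 7 reached a 2-fold ratio in the library where its partner was highest. ENST00000567966 shRNA 5 shares 10 bases with shRNA 1. It had 163, 126 and 164 CPM in selected replicates 1, 2 and 3 and a log2 ratio of 0.17. ENST00000503987 shRNA 2, which shares 13 bases with shRNA 4, had 228, 184 and 128 CPM in selected replicates 1, 2 and 3 and a log2 ratio of 0.55. ENST00000520766 shRNA 1, which shares 13 bases with shRNA 5, had 23.6, 44.2 and 43.1 and a log2 ratio of -0.89. XR_432502 shRNA 4, which shares 11 bases with shRNA 1 of LINC01503, had 328, 248 and 282 against an input mean of 336, so that it did not share the high level of that hairpin in any selected library.

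Guides with the same seed can act on the same off-target RNAs. ENST00000567966 shRNA 1 and XR_253560 shRNA 2 carry the seed TTACAGG, which 116 other guides of the library share. 106 of these were eligible, of which 40 (37.7%) were highest in selected replicate 1, with a median log2 ratio of 0.01 and 0 at 2-fold or more. Among all eligible shRNAs 35.5% were highest in that library. Seeds held by 100 or more other guides were found in 2 of the 13, both with this same seed, and in 1.58% of the eligible shRNAs. Of the 56 shRNAs with a ratio of 2 to 3, 0 had such a seed. For TTACAGC, the seed of NR_046989 shRNA 2, 6 of 16 other guides were highest in selected replicate 3, and their median log2 ratio was 0.03. For the seed of ENST00000520766 shRNA 5, 8 of 15 other eligible guides (53.3%) were highest in selected replicate 1, with a median log2 ratio of 0.12. The counts were 2 of 5 for ENST00000399152 shRNA 2, 1 of 5 for NR_120563 shRNA 2 and 0 of 6 for ENST00000532768 shRNA 2. The remaining seeds had 3 or fewer other eligible guides. 0 of these other guides reached 2-fold, and the shares were not tested.

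Reads of a near-identical hairpin could be assigned to the wrong one, so neighbours in sequence were compared. 7 of the 13 had another library target within 2 mismatches (53.8%, against 35.3% of the eligible shRNAs and 26.8% of the 56 with a ratio of 2 to 3). At 1 mismatch, 3 of the 13 had one (23.1%), close to the 21.6% of the eligible shRNAs. Positions are counted from 1 at the 5′ end of the target, with the base of the expanded shRNA first. XR_432502 shRNA 1 differs from NR_024458 shRNA 4, against TPT1-AS1, by A14T, and this neighbour stood at 164 ± 2.81 CPM in the input (SD, n = 3) and at 161, 155 and 172 in selected replicates 1, 2 and 3. It therefore did not move with the LINC01503 hairpin. ENST00000399152 shRNA 2 differs from ENST00000533736 shRNA 2 by T12G, and the latter stood at 106 ± 9.77 and then at 28.8, 66.8 and 60.0, lowest where the former was highest. ENST00000580169 shRNA 2 differs from NR_125954 shRNA 4 by T21C, and the latter stood at 196 ± 1.60 and then at 176, 106 and 139. This neighbour was highest in selected replicate 1, as was its partner, but below its input level. Over the 89 eligible shRNAs within 3 mismatches of one of the 13, the median log2 ratio was -0.01, and 31 of them (34.8%) were highest in the same library as their partner.

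In the comparison of all selected with all input libraries, edgeR's quasi-likelihood test called 5.85% of 7232 shRNAs enriched and 6.83% depleted, at a fold limit of 0.75 on the log2 scale and an adjusted p-value of at most 0.05. All 13 passed the minimum mean count of 10. Of the 13, 1 was called enriched (XR_432502 shRNA 1) and 0 depleted, with the same counts at an unadjusted p under 0.05 and in DESeq2. The rule used the same counts, so nothing is read from these calls. XR_432502 shRNA 1 had a log2 ratio of selected over input of 2.51, with an adjusted p of 0.0159 in edgeR. When an input library was left out, the log2 ratio was 2.49 to 2.54 and the adjusted p in edgeR was 0.0578 to 0.0619, so that the call was lost. Without selected replicate 1, the log2 ratio of that shRNA was 1.34 with an adjusted p of 0.0028 in edgeR, so that it was still called enriched. Among the 10 shRNAs highest in selected replicate 1, 7 were called depleted when that library was left out, where 8.31% of 7256 shRNAs were called. The rule picked these shRNAs for being lower in the remaining libraries, so nothing is read from this count either. Their log2 ratios moved, for example, from -0.43 to -1.81 for ENST00000567966 shRNA 1 and from -0.46 to -1.46 for ENST00000505166 shRNA 1. Without selected replicate 3, 0 of the 3 shRNAs highest there were called depleted by edgeR, where 7.88% of 7222 were, and all 3 had log2 ratios below 0 (-0.86 to -1.43).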

How the data were processed

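Cassettes were amplified by PCR from plasmid or genomic DNA. Per the labels and methods, the authors used cutadapt 1.4.2 for trimming, BWA 0.7.10 for alignment against the hairpin sequences, SAMtools 1.3 and their own programs. The deposited values are whole, unnormalized counts per shRNA. A rare hairpin has few counts, and the 3 selected libraries differ in depth, so ratios of rare hairpins are imprecise.

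CPM values by library total were computed in Python 3.11.15 with pandas 2.3.3 and numpy 2.4.6. Exact (Clopper-Pearson) 95% intervals came from scipy 1.17.1. Every hairpin whose mean count reached 10 was tested with edgeR 4.0.16 (TMM, quasi-likelihood, Benjamini-Hochberg) in R 4.3.3, with DESeq2 1.42.0 as an alternative. Both the rule and the fit were tested on simulated data. For the rule, rises were planted only in shRNAs with a mean input count of at least 100. Of the 13, 1 reached that level, so the range of the others was not covered. Targets were searched without mismatches on both strands of GRCh37 and in GENCODE release 44 mapped to GRCh37. 3 of the 13 targets were given no place. Names came from the library annotation, GENCODE or a RefSeq table of another build, from which no coordinates were taken.

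The members, lists and features were chosen with earlier results of these data known. Named were the 8 members per replicate with the highest ratios, those in lists or near a limit, and here all 13. Alternatives were other scalings, limits, filters and tools, a replicate block and each library left out.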

Additional observations from a re-analysis of the deposited data

How the results depend on the processing

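The number of shRNAs expanded in 1 selected replicate was 13, of which 10, 0 and 3 were highest in selected replicates 1, 2 and 3. It was 14 (11, 0 and 3) with TMM or RLE scaling, with all 13 kept, and 13 with libraries at 0 allowed or at least 10 counts in the second highest library. A ratio of at least 2 gave 69 (48, 11 and 10), and of at least 5 gave 3 (2, 0 and 1). With a lower 95% counting limit of at least 3 there were 5 (4, 0 and 1). No limit against the input gave 36 (20, 4 and 12), and 3 times the input gave 2 (1, 0 and 1). No minimum input count gave 45 (29, 7 and 9), a minimum of 10 gave 30 (19, 6 and 5) and a minimum of 100 gave 1 (1, 0 and 0). Selected replicate 1 led in each of these, except that at 3 times the input it was level with selected replicate 3. With no limit against the input, a ratio of at least 4 gave 18 (9, 3 and 6). There, a ratio of at least 5 gave 13 (5, 3 and 5), so that selected replicates 1 and 3 were level.

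Without 1 of the libraries there were 8 to 56, of which 9 to 37 were highest in selected replicate 1, 0 to 19 in selected replicate 2 and 2 to 20 in selected replicate 3. Without selected replicate 1 there were 8 (2 and 6 in selected replicates 2 and 3), including 3 of the 13. Without selected replicate 2 there were 38 (18 and 20 in selected replicates 1 and 3), and without selected replicate 3 there were 56 (37 and 19 in selected replicates 1 and 2). For an shRNA whose highest library stays, leaving out another selected library keeps or widens the ratio. Without 1 of the input libraries there were 11 to 12, of which 10 to 12 belonged to the 13.

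In edgeR, 423 shRNAs were enriched and 494 depleted. A minimum mean count of 100 gave 291 and 306, and left 2 of the 13 tested. Leaving out 1 library gave 288 to 480 enriched and 253 to 603 depleted. With the replicate number as a block there were 382 enriched and 528 depleted, and the calls of the 13 were 1 and 0 as without it. Deviations of same-numbered libraries had correlations of -0.0022, 0.0097 and -0.0280, and those of different numbers reached 0.0304. The input libraries all sample the plasmid pool, so such values cannot decide whether the numbers pair libraries. No pairing is stated in the labels. The share of other hairpins highest in the same library was 28.0% and 22.5% at minimum input counts of 10 and 100. By counting error, the lower limit of the ratio of highest to second highest was under 3 in 8 of the 13. The cause of these shifts was not tested.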
